A study of Mus musculus with 6 samples.

Results

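The 4 Hox gene clusters of the mouse were covered by 401 of the 174638 promoter probes on the array. Probes were taken by position alone, in mm9 coordinates, from chr6:52100000-52220000 for HoxA, chr11:96050000-96235000 for HoxB, chr15:102745000-102872000 for HoxC and chr2:74500000-74607000 for HoxD. HoxA held 125 probes, HoxB 101, HoxC 78 and HoxD 97. In HoxA 1 spot was marked as an outlier, so that 400 probes were analyzed. They lay in runs of adjacent probes, called promoter regions here, and 49 of these regions held at least 3 probes: 13 in HoxA, 13 in HoxB, 10 in HoxC and 13 in HoxD.

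Adipose DNA of 3 LC and 3 CC mice was studied at an age of 32 weeks. By the study's methods these were female C57BL/6J offspring. Dams of the LC mice were fed a low chromium diet through gestation and lactation, and dams of the CC mice a control diet. Both groups ate the control diet after weaning. An antibody to methylated cytosine was used to enrich DNA (MeDIP, Cy5 dye), which was hybridized together with input DNA of that mouse (Cy3 dye). The level of a probe is log2 of the MeDIP signal over the input signal, with the median of each array at 0, so that a higher level stands for more methylated DNA relative to input. The positions carry no gene names, so the adipose label could not be checked against marker genes, and no region was tied to a gene. In whole tissue, a different mix of cells and a different methylation per cell cannot be told apart.

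Hox genes encode homeodomain transcription factors that give cells their position along the body axis. Within a cluster the genes stand in a row, all read from one strand, and their order from the Hox1 end to the Hox13 end follows the order in which they are used from head to tail. Their promoters are rich in CG dinucleotides, the bases that MeDIP reads when methylated, and where silent they are usually covered by Polycomb proteins. Adult fat depots keep distinct sets of active Hox genes.

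The promoter sequences at the ends of the clusters show how many CG dinucleotides the antibody could meet. Each line gives the 250 bases before the gene's start, 5′ to 3′, from the RefSeq promoters of GRCm38.p6, with every CG in capitals. They were chosen as the promoters nearest to the Hox13 end and to the Hox1 end among the Hox genes matched in that table, with Hoxc4 for HoxC.
Hoxa13: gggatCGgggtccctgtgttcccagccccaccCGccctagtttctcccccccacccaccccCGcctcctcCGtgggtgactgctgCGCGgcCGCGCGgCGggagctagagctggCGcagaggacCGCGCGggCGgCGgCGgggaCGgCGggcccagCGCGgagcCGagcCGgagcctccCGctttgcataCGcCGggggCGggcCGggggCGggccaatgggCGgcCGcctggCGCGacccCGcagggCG
Hoxa2: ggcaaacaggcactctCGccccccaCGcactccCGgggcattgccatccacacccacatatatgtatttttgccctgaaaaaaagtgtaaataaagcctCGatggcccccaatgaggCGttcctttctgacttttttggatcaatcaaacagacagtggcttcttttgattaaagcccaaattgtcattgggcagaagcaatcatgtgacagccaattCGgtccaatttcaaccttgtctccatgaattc
Hoxb8: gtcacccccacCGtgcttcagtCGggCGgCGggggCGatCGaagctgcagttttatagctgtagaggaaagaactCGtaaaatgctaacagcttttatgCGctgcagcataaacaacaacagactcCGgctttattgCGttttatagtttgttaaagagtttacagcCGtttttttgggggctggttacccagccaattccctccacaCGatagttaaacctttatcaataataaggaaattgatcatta
Hoxb1: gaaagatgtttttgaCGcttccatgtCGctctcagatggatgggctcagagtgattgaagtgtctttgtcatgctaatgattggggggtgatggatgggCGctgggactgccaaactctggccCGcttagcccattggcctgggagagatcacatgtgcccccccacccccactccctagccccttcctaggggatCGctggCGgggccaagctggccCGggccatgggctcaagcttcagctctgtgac
Hoxc4: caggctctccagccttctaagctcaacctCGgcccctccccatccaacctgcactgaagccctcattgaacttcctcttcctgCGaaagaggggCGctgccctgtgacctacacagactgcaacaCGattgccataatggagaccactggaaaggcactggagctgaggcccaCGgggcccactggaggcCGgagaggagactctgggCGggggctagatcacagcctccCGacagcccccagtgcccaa
Hoxd13: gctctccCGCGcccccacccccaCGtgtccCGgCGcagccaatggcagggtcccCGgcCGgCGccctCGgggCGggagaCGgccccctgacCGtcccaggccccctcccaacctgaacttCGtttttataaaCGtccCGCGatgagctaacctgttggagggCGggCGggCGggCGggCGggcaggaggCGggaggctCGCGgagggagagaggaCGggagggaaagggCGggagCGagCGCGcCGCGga
Hoxd1: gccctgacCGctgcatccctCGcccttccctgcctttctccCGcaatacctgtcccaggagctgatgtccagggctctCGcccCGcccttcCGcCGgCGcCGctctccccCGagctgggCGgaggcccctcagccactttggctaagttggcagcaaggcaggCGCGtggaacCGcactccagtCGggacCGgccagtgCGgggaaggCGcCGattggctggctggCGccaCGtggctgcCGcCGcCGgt

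The 250 bases held 35 CG in Hoxa13 and 31 in Hoxd13, the genes that close their clusters. They held 24 in Hoxd1, 12 in Hoxb8, 8 in Hoxc4, 7 in Hoxb1 and 6 in Hoxa2. Over the 24 promoters of 22 Hox genes in the table, windows of 300 bases held 4 to 45 CG, with a median of 14.5. The median of all 32851 promoters was 7, and 94.6% of them held at least 1 CG. CG reads the same on both strands. These sequences are of another build than the probes, and no probe was assigned to them.

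The arrays of the groups differed in brightness before any comparison. Above local background, the input dye had a median of 105.25, 169 and 126 intensity units on the LC arrays and 239.5, 333.5 and 314 on the CC arrays, so that the groups did not overlap. For MeDIP the median signal was 143.5, 130 and 118 in LC and 146.5, 142 and 218 in CC. The array with 218, CC replicate 3, was scanned at a Cy5 detector voltage of 306, and the others at 279. Slide position 1 held every LC array and position 3 every CC array, and the effects of position and group cannot be told apart. The number of arrays limits the precision, and p-values measure the spread between these 6 samples.

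HoxA stood above the other 3 clusters on every array, though not above HoxB among probes of 45 bases alone, and HoxD was the lowest on average. The HoxA median was 0.20, 0.21 and 0.20 on the LC arrays and 0.16, 0.26 and 0.24 on the CC arrays. The HoxB median was −0.045, 0.030 and 0.0078 in LC and −0.035, −0.068 and −0.087 in CC. HoxB values lay on both sides of the array median in LC and below it on all CC arrays. The HoxC median was −0.14, 0.062 and 0.043 in LC and −0.017, −0.059 and 0.015 in CC. The HoxD median was −0.15, −0.22 and −0.056 in LC and −0.035, −0.20 and −0.032 in CC, below the array median on all 6 arrays.

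**Figure D1:**
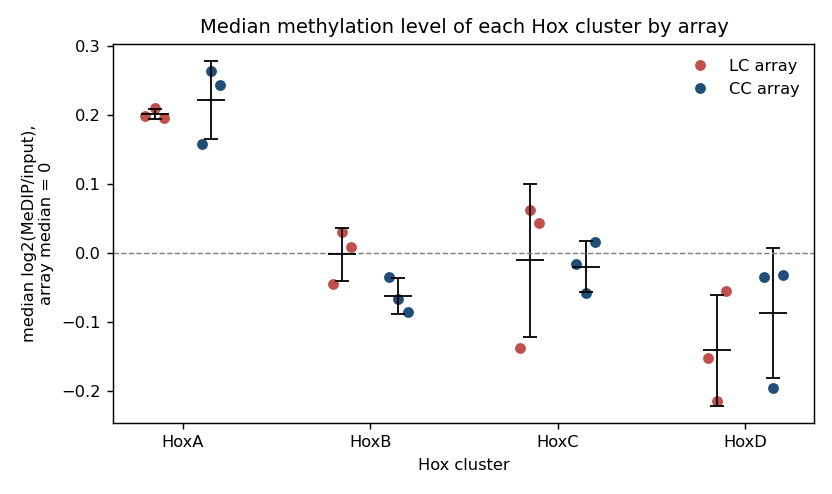
Median log2(MeDIP/input) over the probes of each Hox cluster (y axis, array median at 0) for the 3 LC and the 3 CC arrays. Points are arrays, and bars are the mean ± SD of a group. HoxA lies at 0.16 to 0.26 on all arrays, above the other 3 clusters, and the groups overlap in all 4 clusters.

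HoxA exceeded HoxB by 0.24 ± 0.070 (SD, n = 6 arrays), HoxC by 0.23 ± 0.084 and HoxD by 0.33 ± 0.10, each on 6 of 6 arrays. HoxC exceeded HoxD by 0.099 ± 0.10, also on 6 of 6 arrays. For these 4 pairs the exact two-sided sign-flip permutation test gave p = 0.03125, the smallest that 6 arrays allow, and 0.046875 after adjustment over 6 pairs. HoxB and HoxC differed by −0.017 ± 0.063 (exact sign-flip permutation test, p = 0.5, adjusted p = 0.5). HoxB minus HoxD was 0.082 ± 0.11 (exact sign-flip permutation test, p = 0.125, adjusted p = 0.15). Among probes of 45 bases alone, HoxA minus HoxB turned to −0.097 and HoxA minus HoxC shrank to 0.023, and HoxC minus HoxD turned to −0.050 after loess and to −0.16 with the mean over probes. No pair passed with normexp background correction, after loess, in the authors' values or among probes of 45 bases, where the smallest adjusted p was 0.0625. In the first 3 of these HoxA still exceeded each other cluster with p = 0.03125 in the exact permutation test, before adjustment. Since no pair can go below that p, its adjusted value depends on how many of the 6 pairs reached it.

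Against the 173876 other probes, HoxA was higher by 0.21 ± 0.038 and HoxD lower, with a difference of −0.11 ± 0.084 (SD, n = 6 arrays). Both had p = 0.03125 in the exact sign-flip permutation test and an adjusted p of 0.0625 over the 4 clusters. HoxB differed from the other probes by −0.033 ± 0.044 (exact permutation p = 0.15625, adjusted 0.208) and HoxC by −0.016 ± 0.074 (exact permutation p = 0.65625, adjusted 0.656). In the same test HoxA and HoxD had an adjusted p of 0.0417 with normexp, in the authors' values, with bright input probes and within length classes. HoxA also had it with the mean and HoxD after loess, while HoxB and HoxC passed in 4 alternatives each. That adjusted p depends on how many clusters reached the smallest p that 6 arrays allow. The difference of HoxA was 0.33 against the 114 probes within 1 Mb of it, 0.085 with probes centered within their length class, 0.040 among probes of 45 bases alone (exact permutation p = 0.125), and −0.0023 after loess within arrays. That of HoxD was −0.0027 with the mean over probes (exact permutation p = 0.875) and −0.014 against probes in runs of 20 or more (exact permutation p = 0.6875), and it turned to 0.068 against probes within 1 Mb. The test covers the spread between mice, and the same probes were used on every array. Their levels spread far more widely than the arrays did, with an interquartile range of 1.59 in HoxA, 2.04 in HoxB, 2.24 in HoxC and 1.73 in HoxD against 1.92 in the other probes.

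Single probes ranged over several log2 units in each cluster. The highest was at chr15:102840226-102840270 in HoxC, with 1.84, 2.34 and 2.02 in LC and 2.54, 2.76 and 2.58 in CC. The highest of HoxA, at chr6:52142815-52142863, averaged 2.17, that of HoxB, at chr11:96183824-96183868, 2.14, and that of HoxD, at chr2:74591073-74591117, 2.0. All 4 were well above background in both dyes on all 6 arrays.

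The lowest probes were limited by background. They lay at chr6:52212761-52212809 (mean −4.38), chr11:96147942-96148001 (−4.66), chr15:102864980-102865027 (−4.98) and chr2:74559661-74559715 (−3.11). None of the 4 was well above background in the MeDIP dye on any array, so these values say only that little MeDIP signal was measured. Of all Hox probes, 63 of 400 (15.8%) were not well above background in MeDIP on any array, against 22.7% of the other probes. The share was 12.1% in HoxA, 15.8% in HoxB, 16.7% in HoxC and 19.6% in HoxD.

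Probe length moved with the level. Hox probes of 45 bases had a median level of 0.35, those of 46 to 59 bases −0.57 and those of 60 bases −1.40. In the other probes these medians were 0.43, −0.45 and −1.12. Probes of 45 bases made up 55.6% of HoxA, 60.4% of HoxB, 56.4% of HoxC and 69.1% of HoxD, against 49.9% of the other probes. Probes of 60 bases made up 4.75% of the Hox probes and 13.2% of the others. HoxD, with the largest share of short probes, differed from the other probes by −0.25 after centering within length class. The part of probe length and base composition in these levels was not tested.

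**Figure D2:**
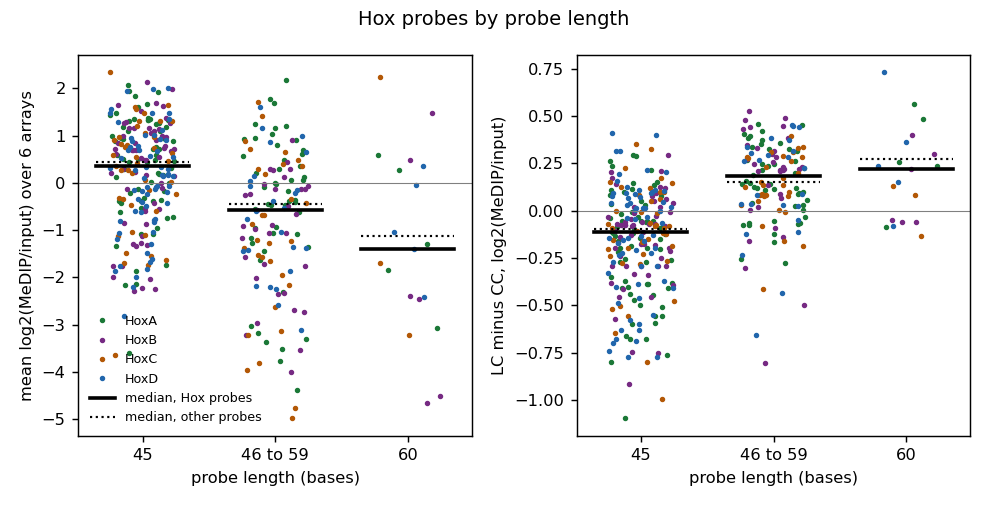
The 400 Hox probes by probe length (x axis, bases), with the mean log2(MeDIP/input) over 6 arrays on the left and the LC minus CC difference of log2(MeDIP/input) on the right. Each point is a probe colored by cluster, and solid and dotted lines are medians of the Hox probes and of the other probes. The median level falls from 0.35 at 45 bases to −1.40 at 60 bases, and the median difference goes from −0.11 to 0.22.

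Neighboring probes of a Hox region resembled each other little. Over 350 neighboring pairs the levels correlated at 0.032, against 0.17 in the other probes. Such pairs share arrays and can share DNA fragments, and the value is a description. In the authors' processed values the same correlation was 0.55 in Hox probes and 0.65 in the others. The median SD between the probes of a region was 1.28 in the Hox clusters and 1.29 elsewhere. Pairs of arrays correlated at 0.949 to 0.993 across the 400 probes, as they did across the other probes (0.948 to 0.991).

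Of the regions, 7 of 13 in HoxA, 4 of 13 in HoxB, 6 of 10 in HoxC and 5 of 13 in HoxD had a mean level above 0. The region with the highest level of any Hox region was chr6:52141208-52142863 in HoxA, 7 probes with 1.08, 1.27 and 1.13 in LC and 1.41, 1.45 and 1.40 in CC. It stood at the edge of the longest stretch without probes in the cluster, 25281 bp from chr6:52115927-52141207. All its probes gave MeDIP signal well above background on at least 1 array. The next highest Hox region, also in HoxA, averaged 0.50.

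The lowest HoxA region, chr6:52149827-52151570, followed it along the chromosome with a mean of −0.98 ± 0.083 (SD, n = 6 arrays). In HoxB the highest region was chr11:96183335-96184736 (0.28 ± 0.15) and the lowest chr11:96131358-96133098 (−1.48 ± 0.054). In HoxC they were chr15:102783672-102785319 (0.25 ± 0.068) and chr15:102843203-102844762 (−1.55 ± 0.076). In HoxD they were chr2:74534523-74536204 (0.32 ± 0.072) and chr2:74548781-74549246 (−1.40 ± 0.13), the latter with 3 probes. Of the low regions, those of HoxA, HoxB and HoxC each held 3 probes without MeDIP signal well above background on any array.

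The regions with the most probes in their clusters differed in level. They were chr6:52162568-52166504 in HoxA, with 17 probes and a mean of −0.37 ± 0.044, and chr2:74599737-74602216 in HoxD, with 12 probes and −0.22 ± 0.065. The largest HoxC region, chr15:102795928-102797675 with 9 probes, was at −0.85 ± 0.029. In HoxB the region with the most probes, 9, was its lowest one, named above. Standard deviations between mice were thus below the SD between probes, 1.41 in the HoxA region, 1.23 in the HoxD region and 1.72 in the HoxC region.

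**Figure D3:**
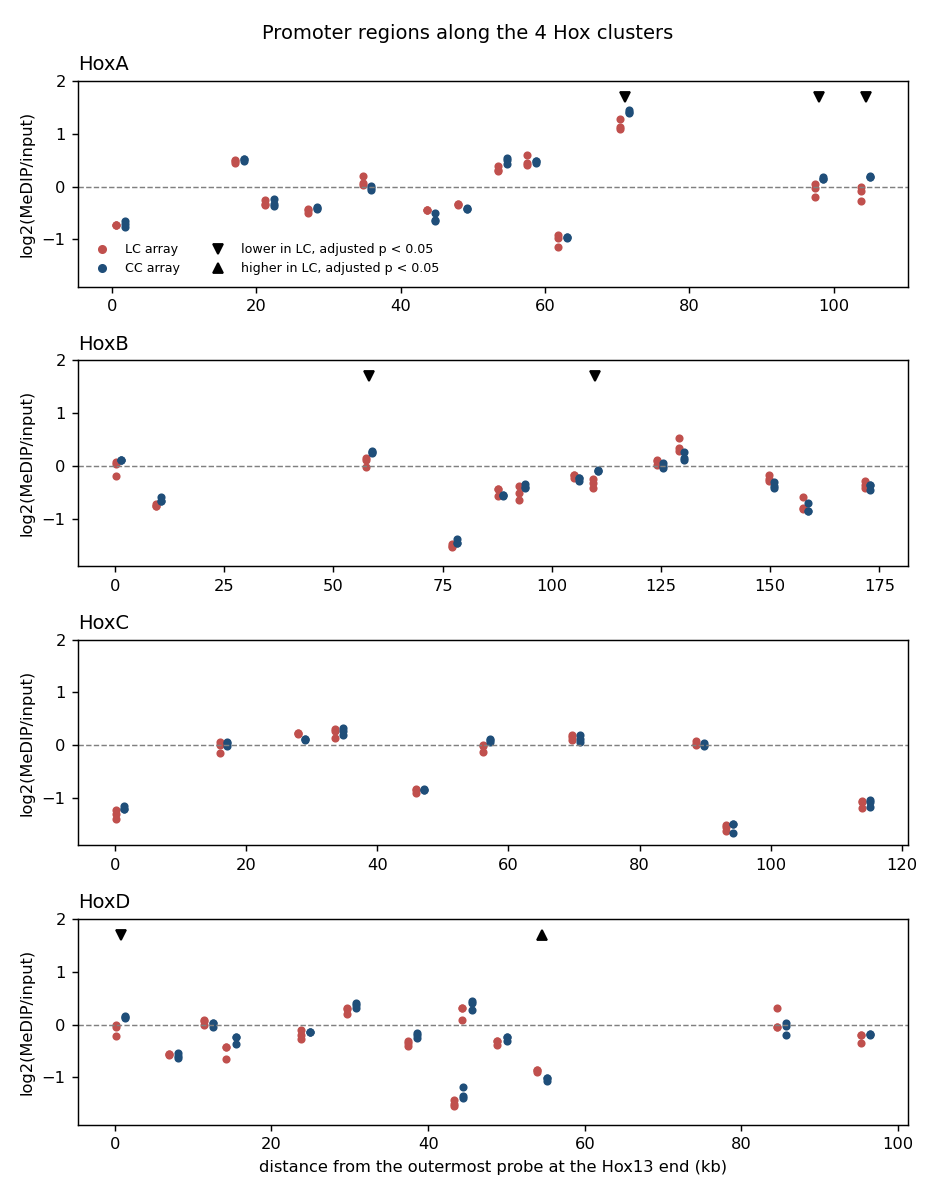
Mean log2(MeDIP/input) of each promoter region of at least 3 probes (y axis) along HoxA, HoxB, HoxC and HoxD, against the distance in kb from the outermost probe at the Hox13 end (x axis). Red points are the 3 LC and blue points the 3 CC arrays, drawn side by side, and triangles mark regions with an adjusted p under 0.05 in limma. The 7 marked regions hold 6 lower and 1 higher in LC, and HoxC has none.

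Gene order runs toward Hoxa13 with increasing coordinate in HoxA, and from the Hox13 gene down in HoxB, HoxC and HoxD. To ask whether the level followed this axis, each cluster was split at the midpoint between its first and last probe. HoxA had 75 probes nearer Hoxa13 and 49 nearer the other end. The end nearer Hoxa13 was lower on 6 of 6 arrays, with differences of −0.013, −0.086 and −0.17 in LC and −0.34, −0.27 and −0.094 in CC. The mean was −0.16 ± 0.12 (exact sign-flip permutation test, p = 0.03125, adjusted p = 0.125 over 4 clusters). Among probes of 45 bases alone it was −0.032 (exact permutation p = 0.1875).

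In the other 3 clusters the difference between ends went with the group. In HoxB it was −0.32, −0.065 and −0.23 in LC and 0.076, 0.24 and 0.17 in CC. In HoxC it was −0.11, −0.30 and −0.18 in LC and 0.030, −0.10 and −0.0084 in CC. In HoxD it was −0.11, −0.10 and −0.12 in LC and 0.061, 0.23 and 0.0080 in CC. In each of these 3 clusters all LC values lay below all CC values, while the groups overlapped in HoxA. Over all 6 arrays the mean was −0.021 ± 0.22 in HoxB, −0.11 ± 0.12 in HoxC and −0.0053 ± 0.14 in HoxD (exact sign-flip permutation tests, p = 0.84375, 0.09375 and 0.96875).

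LC minus CC of the end difference was −0.37 in HoxB, −0.17 in HoxC, −0.21 in HoxD and 0.15 in HoxA. The exact two-sided permutation test gave p = 0.1 for HoxB, HoxC and HoxD, the smallest that 3 arrays against 3 allow, and 0.2 for HoxA, with adjusted p of 0.133 and 0.2. This comparison was chosen after the values were seen. Probe length was uneven along the clusters, since probes of 45 bases made up 72.7% of the Hox13 end and 54.4% of the Hox1 end in HoxB, 60.4% and 50% in HoxC and 74.2% and 60% in HoxD. With probes centered within length class the value was −0.13 in HoxB, −0.0038 in HoxC and 0.025 in HoxD, and among probes of 45 bases alone it was 0.17, 0.046 and −0.0085. In HoxA these values were 0.12 and −0.039.

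**Figure D4:**
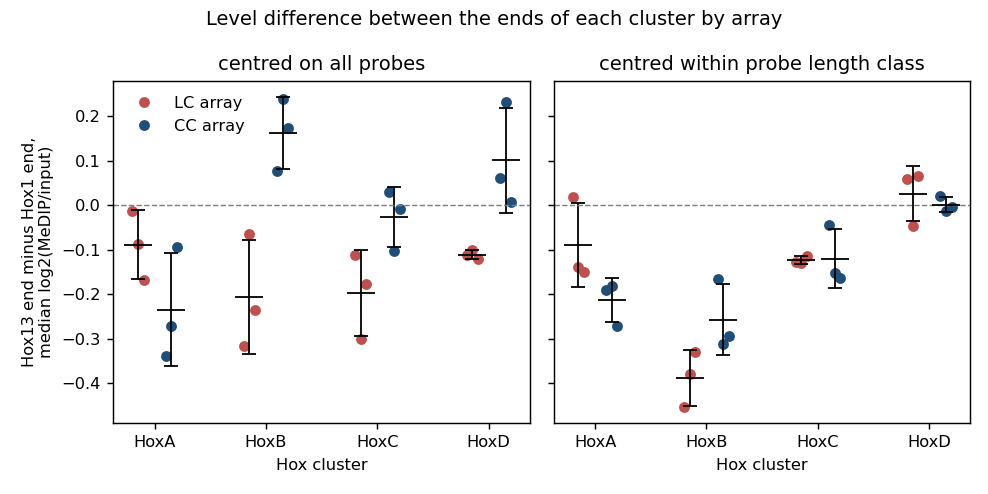
Median log2(MeDIP/input) at the Hox13 end minus that at the Hox1 end (y axis) of each cluster, with all probes centered together (left) and within their length class (right). Points are arrays, red for LC and blue for CC, and bars are the mean ± SD of a group. On the left the 3 LC arrays lie below the 3 CC arrays in HoxB, HoxC and HoxD, and on the right in HoxB, while in HoxA on the right they lie above.

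No whole cluster passed the test between LC and CC. LC minus CC of the cluster median was −0.020 in HoxA, 0.061 in HoxB, 0.0089 in HoxC and −0.054 in HoxD. The exact two-sided permutation test gave p = 0.6, 0.2, 1 and 0.5, and adjusted p of 0.8, 0.8, 1 and 0.8, where 3 arrays against 3 cannot give less than 0.1. Within scan days, each of which held an LC and a CC array, the difference was 0.041, −0.053 and −0.048 in HoxA and −0.0095, 0.097 and 0.094 in HoxB. In HoxC it was −0.12, 0.12 and 0.028, and in HoxD −0.12, −0.019 and −0.023. The sign turned with normexp in HoxA (0.052) and HoxD (0.022), and with centering within length class in HoxA (0.034), HoxC (−0.034) and HoxD (0.048). Among probes of 45 bases alone it turned in HoxB (−0.17) and HoxC (−0.23), and it was −0.16 in HoxA and −0.14 in HoxD. Each of the 4 then had p = 0.1 in the exact permutation test. On another measure, the median over 45-base probes of LC minus CC per probe, the other probes had −0.095. By that measure HoxA had −0.145, HoxB −0.082, HoxC −0.091 and HoxD −0.063.

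Read in each dye alone, no cluster could pass, since 3 arrays against 3 cannot give a p below 0.1. In the MeDIP dye LC minus CC was 0.034 in HoxA, 0.0062 in HoxB, 0.031 in HoxC and −0.081 in HoxD (exact permutation p = 0.1, 0.9, 0.3 and 0.1). In HoxD all LC values lay below all CC values (0.11 to 0.16 against 0.20 to 0.24). In HoxA they lay barely above them (0.2887 to 0.3157 against 0.2258 to 0.2887). In the input dye it was 0.042, 0.021, −0.083 and 0.058 (exact permutation p = 0.4, 0.8, 0.3 and 0.3).

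At the scale of promoter regions, 6 of the 49 Hox regions were lower in LC and 1 was higher at an adjusted p under 0.05 in limma, fitted over all 22584 regions of the array. That is 12.2% and 2.04% of the Hox regions, while 8.84% of all regions were lower and 10.2% higher. Of the lower regions, 3 were in HoxA, 2 in HoxB and 1 in HoxD, and the higher one was in HoxD. None was called in HoxC, where 2 regions were lower and 1 was higher at an unadjusted p under 0.05. On the whole array 3883 of the 22584 regions were lower and 4858 higher at that p. The median LC minus CC was −0.031 over the Hox regions and 0.015 over all regions. Within length classes these medians were −0.0013 and −8.9e-06, in the authors' values 0.0055 and 0.0063, and with normexp 0.058 and 0.039. They were −0.017 and −0.0015 after loess, −0.060 and 0.0077 with quantile normalization, and −0.081 and −0.0043 with equal spread.

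These counts moved with the processing. With normexp background correction 3 Hox regions were lower and 12 higher, with loess 3 were lower and 0 higher, and with centering within length class 2 were lower and 0 higher. Over all 22584 regions these counts were 1526 and 4665, 1439 and 704, and 652 and 271. Without CC replicate 1, CC replicate 2 or CC replicate 3, limma called 0 Hox regions. At an unadjusted p under 0.05, 9, 10 and 11 Hox regions were then lower and 1, 2 and 4 higher. On the whole array 2935, 3026 and 2962 regions were lower and 3182, 4099 and 3922 higher at that p. Over the whole array limma then called 0 regions without CC replicate 1 or 3. Without CC replicate 2 it called 517 lower and 614 higher. Without LC replicate 1 it called 4 lower and 0 higher Hox regions, without LC replicate 2 it called 9 and 1, and without LC replicate 3 it called 5 and 0. Over all regions these counts were 1202 and 1167, 2368 and 2863, and 1559 and 1496. With the scan day or the scan time as a block it called 0 Hox regions. At an unadjusted p under 0.05, 11 and 10 Hox regions were lower and 4 and 3 higher. With either block it called 0 regions on the whole array, where 3739 and 2477 were lower and 4521 and 3075 higher at that p. LC replicate 3 and CC replicate 3 each stood alone in their scan time, so that block compared only replicates 1 and 2.

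The region with the highest HoxA level, chr6:52141208-52142863, was lower in LC. Its values, given above, did not overlap between the groups. The difference was −0.26 (SE 0.057, limma adjusted p = 0.0222), and −0.33, −0.18 and −0.27 within days. It was −0.17 with quantile normalization, −0.14 with equal spread and −0.20 with centering within length class, where limma gave adjusted p of 0.0691, 0.116 and 0.0557, and the call was lost in 10 alternatives and held in 9. In HoxB, chr11:96163539-96165269 had −0.41, −0.25 and −0.32 in LC and −0.10, −0.073 and −0.11 in CC over 9 probes. Its groups did not overlap, and the difference was −0.23 (SE 0.053, limma adjusted p = 0.0241). It was −0.071 with normexp, −0.13 after loess, −0.17 with centering within length class and −0.12 with the median over probes, where limma gave adjusted p of 0.224, 0.0958, 0.0689 and 0.467, and the call was lost in 10 alternatives and held in 11. Other lower regions were chr6:52114331-52115926 (−0.22), chr11:96111707-96113462 (−0.18) and chr2:74505167-74506676 (−0.23), with limma adjusted p of 0.0404, 0.0469 and 0.0327. In all 6 lower regions the groups did not overlap, so LC was necessarily lower within each of the 3 scan days too.

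The higher region, chr2:74558979-74560399 in HoxD, had −0.87, −0.91 and −0.86 in LC and −1.08, −1.01 and −1.02 in CC. All LC arrays were above all CC arrays by a small margin, and the difference was 0.15 (SE 0.046, limma adjusted p = 0.0440). It was 0.058 after loess, 0.063 with equal spread and 0.069 with centering within length class, where limma gave adjusted p of 0.433, 0.353 and 0.331, and the call was lost in 17 alternatives and held in 4. Of its 7 probes, 3 were not well above background in MeDIP on any array. The largest positive difference of any Hox region did not pass the threshold. It was at chr11:96183335-96184736 in HoxB, with 0.52, 0.34 and 0.28 in LC and 0.10, 0.14 and 0.27 in CC (0.21, SE 0.071, limma adjusted p = 0.0637). It passed in 3 alternatives and missed in 18, with limma adjusted p of 0.0353 with normexp, 0.0395 in the authors' values and 0.0440 with bright input probes. LC1 was the highest of its arrays, and the within-day differences were 0.42, 0.19 and 0.0076.

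By signal centered on the array median, the called differences were larger in the input dye than in the MeDIP dye. In all 7 regions the LC minus CC difference of this centered log2 signal was larger in size in input than in MeDIP. In the 6 lower regions it was 0.14 to 0.29 in input and −0.12 to 0.018 in MeDIP. In the higher region it was −0.12 in input and −0.0016 in MeDIP. At chr6:52114331-52115926 input and MeDIP were close in size, at 0.14 and −0.12. Fitted on the input dye alone after quantile normalization of that dye, limma called 3 of the 7 in the opposite direction to the ratio. On that scale the input difference was 0.0059 at chr6:52114331-52115926 and 0.074 at chr11:96163539-96165269, against 0.14 and 0.19 when centered. In the other lower regions it was 0.12 to 0.27, and in the higher region −0.10. Fitted on the MeDIP dye alone in the same way, limma called 0 Hox regions, where 3 lower and 0 higher ones had an unadjusted p under 0.05. It called 0 of all 22584 regions in that dye, so the Hox regions were no exception. Over all regions 1234 lower and 1226 higher ones had an unadjusted p under 0.05. The LC arrays were those with the dimmer input, and the part of input brightness in these calls was not tested.

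**Figure D5:**
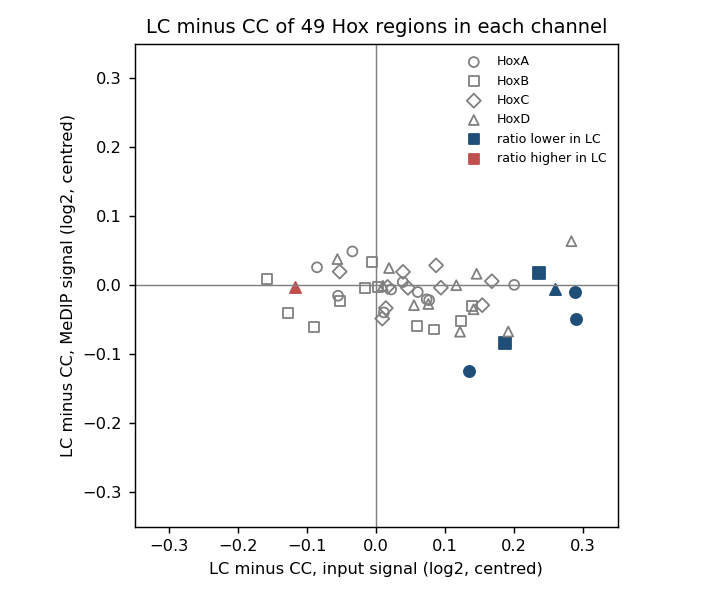
LC minus CC of the centered log2 signal in the input dye (x axis) and in the MeDIP dye (y axis) for the 49 Hox regions, with the cluster as the marker shape. Filled blue markers are the 6 regions called lower in LC and the filled red one the region called higher. The lower regions lie at 0.14 to 0.29 on the input axis and −0.12 to 0.018 on the MeDIP axis.

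Without a threshold on p, all 3 LC arrays lay below all 3 CC arrays in 17 of the 49 Hox regions (34.7%) and above them in 7 (14.3%). Over all regions these shares were 20.5% and 24.1%. By value, 30 of 49 Hox regions (61.2%) were lower in LC, against 46.2% of all regions. These shares were not counted again with probes centered within length class.

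Among single Hox probes, 23 of 400 (5.75%) were lower in LC and 11 (2.75%) higher at an adjusted p under 0.05 in limma, against 4.29% and 1.75% of all probes. HoxA had 5 lower and 5 higher, HoxB 5 and 3, HoxC 3 and 0, and HoxD 10 and 3. At an unadjusted p under 0.05, 8 of the 78 HoxC probes were lower and 11 higher, against 26840 and 28294 of all 174276. The calls followed probe length, since 22 of the 23 lower probes and 0 of the 11 higher ones were 45 bases long. So did those of the other probes, where 6792 of 7448 lower ones and 200 of 3041 higher ones were 45 bases long. The median LC minus CC was −0.11 in Hox probes of 45 bases, 0.18 in those of 46 to 59 bases and 0.22 in those of 60 bases, and −0.095, 0.15 and 0.27 in the other probes. With centering within length class 3 Hox probes were lower and 0 higher, and with normexp 38 were lower and 62 higher. Over all probes these counts were 1057 and 137, and 14284 and 23467. Without any one of the 3 CC arrays limma called 0 probes on the whole array, Hox probes included. Of the Hox probes, 59 to 69 lower ones and 40 to 50 higher ones then had an unadjusted p under 0.05. Of all probes, 20707 to 23022 lower ones and 16636 to 21759 higher ones did.

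The called probe with the largest fall was chr15:102807659-102807703 in HoxC, with −1.99, −1.51 and −1.31 in LC and −0.43, −0.69 and −0.70 in CC. The groups were far apart, with a difference of −0.995 (SE 0.17, limma adjusted p = 0.0336). In HoxB, chr11:96163746-96163790 lay within the called region above and had 0.50, 0.73 and 0.79 in LC and 1.75, 1.62 and 1.40 in CC. Its difference was −0.92 (SE 0.13, limma adjusted p = 0.0300). In these probes the input dye differed by 0.76 and 0.81 and the MeDIP dye by −0.28 and −0.15.

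The called probes with the largest positive differences were both 60 bases long and close to background. The HoxD probe chr2:74528648-74528707 differed by 0.73 (limma adjusted p = 0.0300) and was well above background in neither dye on any array, so that no level can be read from it. The HoxA probe chr6:52164077-52164136 had −2.80, −2.74 and −2.79 in LC and −3.48, −3.22 and −3.33 in CC, a difference of 0.57 (SE 0.10, limma adjusted p = 0.0343). Its MeDIP signal never rose well above background. Of the 11 higher probes 5 were of this kind, and of the 23 lower ones 1. Called or not, 15.8% of the Hox probes and 22.7% of the other probes were of this kind.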

How the data were processed

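Each of 6 promoter arrays carried MeDIP DNA (Cy5) and input DNA (Cy3) of 1 mouse, 3 LC and 3 CC, with no dye swap. The authors deposited Agilent Feature Extraction 11.0.1.1 output, with an intensity per spot and dye that was background-subtracted with spatial detrending and scaled by a linear factor per dye. A deposited log10 ratio served only to check which dye was the numerator (r of at least 0.999 with the log2 ratio used here). The authors' processed table holds log2 values, and the study names no normalization for it. Spot flags other than these belong to no scale.

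Values were log2 of processed Cy5 over processed Cy3, centered on each array's median, leaving out control features and 362 probes with an outlier mark, which left 174276. Regions were runs of probes with starts at most 500 bp apart and at least 3 probes. LC minus CC was fitted with limma 3.58.1 in R 4.3.3 over all regions or all probes (Benjamini-Hochberg, 0.05). Cluster medians were compared over arrays by exact permutation. In simulated data, a shift of 0.5 given to 200 of 22584 regions was recovered in 197 (98.5%), and 13 others were called. That shift was larger than any Hox region difference (−0.30 to 0.21). The simulated spread was random, without the group difference in input brightness or slide position. Recovery and false calls under the conditions of the Hox regions were thus not measured. Alternatives were normexp (offset 50, on median signals), loess, quantile, equal spread, the authors' values and bright input probes. Further ones were length classes (45, 46 to 59, 60 bases), 45-base probes, mean for median, and other backgrounds and splits. Other run definitions (300 and 1000 bp, 1 probe) were used, and scan day or scan time as a block. The last were robust limma with a trend, the methods' t-test with Benjamini-Hochberg adjustment, each dye alone and each array left out. The test of the end difference between groups was added after the values were seen.

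Named were, for each cluster, the highest, lowest and largest region and the highest and lowest probe, and of the called regions up to 3 and of the called probes up to 2 in each direction, by size (with fewer than 2 called regions, the 2 largest). The clusters, lists and tests were chosen with earlier results of these data known. Gene order and sequences came from RefSeq GRCm38.p6 tables, without coordinates. The study's peak search was not run here. Results for 1 of the regions and genes that the rule would name are not reported here.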

Additional observations from a re-analysis of the deposited data

Results flagged for a closer look

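In 2 clusters all LC arrays moved one way and all CC arrays the other in the difference between the ends. In HoxB the Hox13 end minus the Hox1 end was below 0 on all 3 LC arrays (mean −0.21) and above 0 on all 3 CC arrays (mean 0.16). LC minus CC was −0.37 (exact permutation test over 3 arrays against 3, p = 0.1, adjusted p = 0.133), and −0.31 to −0.44 with 1 array left out. In the authors' values it was −0.029 (exact permutation p = 0.8), and the groups overlapped. In HoxD the means were −0.11 in LC and 0.10 in CC. LC minus CC was −0.21 (exact permutation test, p = 0.1, adjusted p = 0.133), and −0.15 to −0.26 with 1 array left out. Among probes of 45 bases alone the HoxB value was 0.17, and with probes centered within length class the HoxD value was 0.025.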

How the results depend on the processing

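The level differences and the counts moved as follows, and the cause was not tested. Against the other probes, HoxA was 0.12 with normexp, −0.0023 with loess, 0.11 in the authors' values, 0.13 with bright input probes, 0.085 within length classes and 0.17 with the mean over probes. HoxB was −0.094 with normexp, −0.18 with loess, −0.11 with bright input probes, −0.13 with the mean, 0.14 among 45-base probes and 0.068 against probes in runs of 20 or more. HoxC was −0.22 with loess, −0.071 in the authors' values, −0.19 within length classes, −0.16 with the mean, 0.016 among 45-base probes and 0.085 against runs of 20 or more. HoxD was −0.074 with normexp, −0.17 with loess, −0.080 in the authors' values, −0.17 with bright input probes, −0.25 within length classes and 0.068 against probes within 1 Mb. Of the pairs, HoxA minus HoxB was 0.21 with normexp, 0.18 with loess, 0.15 in the authors' values and −0.097 among 45-base probes. HoxA minus HoxC was 0.17, 0.22, 0.18 and 0.023 in the same order, and HoxA minus HoxD 0.19, 0.16, 0.19 and 0.33. HoxB minus HoxC was 0.037 with loess, 0.029 in the authors' values, 0.16 within length classes, 0.12 among 45-base probes and 0.029 with the mean. HoxB minus HoxD was −0.020 with normexp, −0.013 with loess, 0.23 within length classes and −0.13 with the mean. HoxC minus HoxD was 0.024 with normexp, −0.050 with loess, 0.0082 in the authors' values, 0.069 within length classes, 0.30 among 45-base probes and −0.16 with the mean.

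The end difference of HoxA was −0.39 with the mean. That of HoxB was 0.014 with normexp, 0.15 among 45-base probes, −0.23 with the mean and 0.42 with the outer parts of the cluster only. That of HoxC was 0.19 in the authors' values, 0.32 with the mean and 0.22 with the outer parts, and that of HoxD was 0.063 with loess, 0.014 within length classes, 0.16 with the mean and 0.042 with the outer parts. LC minus CC of the end difference was −0.039 in HoxA, 0.17 in HoxB and 0.046 in HoxC among 45-base probes, 0.024 in HoxC with loess and 0.025 in HoxD within length classes. LC minus CC of the median was 0.052 with normexp, 0.0042 with quantile normalization and 0.034 within length classes in HoxA, and −0.17 among 45-base probes and −0.025 with the mean in HoxB. In HoxC it was −0.037 in the authors' values, −0.034 within length classes, −0.23 among 45-base probes and −0.022 with the mean. In HoxD it was 0.022 with normexp, 0.067 with loess, 0.031 in the authors' values and 0.048 within length classes.

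Lower and higher Hox regions numbered 3 and 12 with normexp, 3 and 0 with loess, 4 and 0 with quantile normalization, 5 and 0 with equal spread, 5 and 2 in the authors' values, 9 and 5 with bright input probes and 2 and 0 within length classes. Over all regions these numbers were 1526 and 4665 with normexp, 1439 and 704 with loess, and 1037 and 520 with quantile normalization. They were 991 and 312 with equal spread, 2091 and 1781 in the authors' values and 652 and 271 within length classes. With bright input probes they were 3250 and 2365 of 22072. Lower and higher Hox regions numbered 0 and 5 in the input dye, 2 and 1 with the median over probes, 4 and 0 with runs of 1 probe or more and 7 and 0 with a trend and robust limma. Over all regions these were 1609 and 1582, 1173 and 744, 1520 and 1821, and 2110 and 2103. The methods' t-test, the MeDIP dye and the scan-time block gave 0 Hox regions. At an unadjusted p under 0.05, 11, 3 and 10 Hox regions were lower and 4, 0 and 3 higher. Each of these gave 0 regions on the whole array as well. There 3093, 1234 and 2477 regions were lower and 3465, 1226 and 3075 higher at that unadjusted p. Lower and higher Hox probes numbered 38 and 62 with normexp, 6 and 1 with loess, 9 and 1 with quantile normalization, 11 and 1 with equal spread, 39 and 21 in the authors' values, 49 and 18 with bright input probes, 3 and 0 within length classes and 13 and 18 in the input dye. Over all probes these were 14284 and 23467 with normexp, 2912 and 321 with loess, and 2433 and 362 with quantile normalization. They were 2723 and 391 with equal spread, 13494 and 8319 in the authors' values, and 1057 and 137 within length classes. With bright input probes they were 14733 and 7067 of 154895, and in the input dye 4824 and 6116. The t-test, the MeDIP dye and the scan-time block gave 0 Hox probes. At an unadjusted p under 0.05, 65, 25 and 68 Hox probes were lower and 60, 24 and 49 higher. Over all probes the t-test gave 1 lower and 1 higher, and the MeDIP dye and the scan-time block 0. There 20865, 7744 and 24741 probes were lower and 22764, 9765 and 22710 higher at that unadjusted p.

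With 1 array left out, 5 arrays cannot give a sign-flip p below 0.0625, so the pairs could not pass. HoxA minus HoxB then ranged from 0.23 to 0.26, HoxA minus HoxC from 0.21 to 0.24, HoxA minus HoxD from 0.30 to 0.35 and HoxC minus HoxD from 0.063 to 0.12. HoxC against the other probes ranged from −0.031 to 0.0089, the end difference from −0.073 to 0.038 in HoxB and −0.053 to 0.018 in HoxD, and LC minus CC of the median from −0.052 to 0.00084 in HoxA and −0.028 to 0.073 in HoxC. Lower Hox regions ranged from 0 to 9, higher from 0 to 1, lower Hox probes from 0 to 33 and higher from 0 to 14. Over the whole array these ranges were 0 to 2368, 0 to 2863, 0 to 10617 and 0 to 6368.

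With a replicate block (arrays of a number were scanned on 1 day), limma called 0 Hox regions, with 11 lower ones and 4 higher ones under an unadjusted p of 0.05, and 11 lower and 2 higher Hox probes. Over the whole array it called 0 regions, and 3078 lower and 516 higher probes. Of all regions, 3739 lower ones and 4521 higher ones had an unadjusted p under 0.05. The regions chr6:52141208-52142863 and chr11:96163539-96165269 then had adjusted p of 0.0508 and 0.0528. The deviations of same-numbered arrays from their group means correlated at −0.16, 0.11 and −0.00084, which does not settle whether the numbers pair the samples. For the cluster medians the blocked sign-flip over 3 pairs, which cannot go below 0.25, gave p of 0.25 to 1.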
